A study of Homo sapiens with 6 samples.

Results

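DNA replication and mitosis genes are the genes that a dividing cell switches on in turn, first to copy its DNA and then to separate the copies. The set held 47 genes given as a list, 23 of the G1/S transition and replication and 24 of the G2/M transition and mitosis, and all 47 were found among the 19876 gene symbols of the count table. RNA was sequenced from cells labelled A549, a human line derived from an adenocarcinoma of the lung, with wild-type genotype in both groups and grown in DMEM with fetal bovine serum. One group of 3 libraries received rhTR11B and the other group of 3 libraries received phosphate-buffered saline (PBS) as the negative control. The labels do not spell out rhTR11B. TR11B is in use as an abbreviation for osteoprotegerin (TNFRSF11B), which cells secrete and which captures RANKL and TRAIL. Neither dose nor duration is in the labels. They call the libraries biological replicates without saying that the cultures were separate, so p-values measure the spread among these libraries and that spread may be technical. The comparison asks whether transcripts of the division cycle differ between cells given rhTR11B and cells given PBS.

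In late G1, cyclin D and cyclin E kinases inactivate the retinoblastoma protein, and the freed E2F factors switch on genes for helicase loading, DNA synthesis and nucleotide supply. Genes of mitosis are switched on later, through MYBL2 and FOXM1 together with the MuvB complex. This complex acts at a short promoter element called the CHR (cell cycle genes homology region), often beside CCAAT boxes bound by NF-Y. Because transcripts of both waves are abundant in cycling cells and scarce in resting ones, they are widely used as a readout of proliferation. In RNA from a whole culture, fewer cells in a phase and less RNA per cell cannot be told apart.

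The promoters of the set carried the elements that background describes. RefSeq promoter windows on GRCh38.p14, from 250 bases before to 50 bases after a start, were found for 19 of the 23 G1/S genes and 19 of the 24 G2/M genes. MCM4, MCM5, CCNE2, CCND1, AURKA, TTK, TPX2, UBE2C and BIRC5 had none. An E2F-type match (any of the letters TTGGCGC, the letters TTCGCGC and the letters TTCCCGC on either strand, where matches on opposite strands can overlap) stood in at least one window of 16 G1/S genes (84.2%) and 3 G2/M genes (15.8%), and of 13.1% of all 27305 genes with a window. A CHR match (the letters TTTGAA, and likewise the letters TTCGAA, on either strand) stood in 2 G1/S genes (10.5%) and 14 G2/M genes (73.7%), and in 19.5% of all genes. CCAAT on either strand was found in 13 G1/S genes and 16 G2/M genes, and in 39.7% of all genes. A match of letters is a description and not a bound site. Other spellings of these elements were not searched, so a gene without a match may still hold such an element.

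The stretches shown are those of the genes closest to passing the test below, taken from the 4 of each phase with the smallest p and limited to genes with a single window. Each runs 5′ to 3′ on the gene's own strand, from 160 bases before the RefSeq start to the last base before it, with matches to the E2F-type, CHR and CCAAT letters in capitals.
GINS2 (chr16:85688955-85689114, minus strand): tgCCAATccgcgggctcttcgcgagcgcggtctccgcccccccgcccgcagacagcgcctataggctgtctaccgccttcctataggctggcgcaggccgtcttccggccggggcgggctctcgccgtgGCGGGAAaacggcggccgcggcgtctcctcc
CDC6 (chr17:40287719-40287878, plus strand): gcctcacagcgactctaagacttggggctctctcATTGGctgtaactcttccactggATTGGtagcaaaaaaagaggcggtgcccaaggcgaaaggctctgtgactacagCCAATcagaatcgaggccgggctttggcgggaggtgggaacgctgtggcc
MCM6 (chr2:135876444-135876603, minus strand): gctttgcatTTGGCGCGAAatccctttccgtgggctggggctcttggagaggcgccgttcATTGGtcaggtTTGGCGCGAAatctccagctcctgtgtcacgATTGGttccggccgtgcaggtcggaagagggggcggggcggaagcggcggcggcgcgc
CCNA2 (chr4:121823884-121824043, minus strand): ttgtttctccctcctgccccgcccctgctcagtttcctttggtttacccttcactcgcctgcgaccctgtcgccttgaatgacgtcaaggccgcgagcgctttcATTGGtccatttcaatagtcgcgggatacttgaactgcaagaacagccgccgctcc
CCNB2 (chr15:59104986-59105145, plus strand): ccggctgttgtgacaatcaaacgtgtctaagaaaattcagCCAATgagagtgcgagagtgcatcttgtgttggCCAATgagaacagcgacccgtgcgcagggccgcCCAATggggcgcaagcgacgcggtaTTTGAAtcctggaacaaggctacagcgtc
CDC20 (chr1:43358821-43358980, plus strand): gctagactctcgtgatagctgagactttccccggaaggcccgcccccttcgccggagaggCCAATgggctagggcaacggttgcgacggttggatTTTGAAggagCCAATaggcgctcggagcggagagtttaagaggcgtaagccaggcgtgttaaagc

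MCM6 held the same E2F-type run at 2 places, each made of overlapping matches on opposite strands, and GINS2 held 1 E2F-type match 31 bases before its start. The match of CDC6 to the E2F-type letters searched began at base 9 after the start and is therefore outside the stretch shown. In the stretches shown, CCNB2 held 3 CCAAT boxes and then a CHR match 29 bases before the start, and CDC20 held a CHR match between 2 CCAAT boxes. CCNA2 held 1 match to the letters searched, a CCAAT box on the opposite strand. Over the 38 genes with a window, those with an E2F-type match had a median log2 fold change (rhTR11B over PBS, given for each gene below) of -0.08 (n = 19) and those without one -0.02 (n = 19). Genes with a CHR match had -0.02 (n = 16) and those without one -0.07 (n = 22). Of the 19 genes with an E2F-type match 16 were G1/S genes, and of the 16 with a CHR match 14 were G2/M genes. These splits therefore largely repeat the split by phase, and whether an element bears on the fold change was not tested.

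Before the results, the labels were set against the files. Totals ran from 36315751 to 36992958 counts in the rhTR11B libraries and from 37203313 to 38148838 in the PBS libraries. The first principal component of log2(CPM + 1), where CPM are counts scaled to a common library total, held 49.7% of the variance. It separated the groups, with the PBS libraries at -12.6 to -4.44 and rhTR11B replicates 1 and 2 at 1.55 and 5.23. The rhTR11B replicate 3 library stood farthest out, at 19.2. The 13 mitochondrially encoded genes took 10.4% of the counts in rhTR11B replicate 3, 8.75% and 7.88% in rhTR11B replicates 1 and 2, and 6.63% to 7.71% in the PBS libraries. This share did not overlap between the groups, and with these genes left out of the fit the medians given below were -0.09 and -0.02, as with them. Leaving the genes out does not make the libraries alike in this share, so that fit cannot decide whether the share matters. Of 8 epithelial and A549 markers, 6 were in the table. KRT8 and KRT18, keratins of simple epithelia, were abundant (31538 to 36616 and 23189 to 26955 counts over all libraries) and MUC1 was present (380 to 518 counts). KRT19, EPCAM and the epithelial cadherin CDH1 were near 0, with at most 5, 10 and 1 counts in any library. CDKN2A, a cell cycle inhibitor whose locus is known to be lost in A549, had 2030, 2003 and 1593 counts in rhTR11B replicates 1 to 3 and 2242, 2036 and 2310 counts in PBS replicates 1 to 3. These values go against the cell line label in both groups alike, so the cells are called by their label here and results are not assigned to A549 beyond it. Markers of other cell types were low. Summed counts of 3 leukocyte markers were 131 to 171 with rhTR11B and 106 to 149 with PBS, those of 3 endothelial markers 7 to 9 and 5 to 16, and those of 4 fibroblast markers 149 to 231 and 102 to 135. CD68 made up most of the first sum and COL1A1 most of the last. LYZ, PECAM1, VWF, DCN and PDGFRB had at most 2 counts in any library. Whether these markers bear on the cell cycle genes was not tested.

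The cells carried high levels of both waves of transcripts in both groups. Per length of gene, in FPKM (fragments scaled by gene length and library total) averaged over all 6 libraries, the G1/S genes had a median of 45.6 and the G2/M genes 55.6, against 6.17 for all 13567 tested genes. PCNA, the sliding clamp that holds DNA polymerase on its template, was the highest of the 47 at 185 ± 6.18 FPKM with rhTR11B and 198 ± 8.15 FPKM with PBS (SD, n = 3 each). TYMS, which makes thymidylate, followed at 162 ± 13.7 FPKM with rhTR11B and 177 ± 8.0 FPKM with PBS, and CDC20, the activator of the anaphase-promoting complex, at 153 ± 3.95 FPKM with rhTR11B and 168 ± 2.44 FPKM with PBS. With the rhTR11B value before the PBS value for each gene, CCNB1 (141 ± 8.02 and 149 ± 4.08 FPKM), TPX2 (139 ± 5.91 and 145 ± 5.16 FPKM), MCM7 (136 ± 3.33 and 141 ± 2.34 FPKM) and TOP2A (135 ± 3.68 and 136 ± 5.57 FPKM) each differed from the next by less than the larger of their SDs. At the low end stood CENPE (10.0 ± 0.368 and 10.3 ± 1.41 FPKM), CCNE2 (6.11 ± 0.327 and 6.76 ± 0.943 FPKM) and POLA1, the catalytic subunit of the primase polymerase (5.23 ± 0.165 and 5.38 ± 0.177 FPKM). The proliferation marker MKI67 ranked 19 of the 47, at 60.3 ± 2.28 FPKM with rhTR11B and 58.1 ± 1.27 FPKM with PBS.

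**Figure D1:**
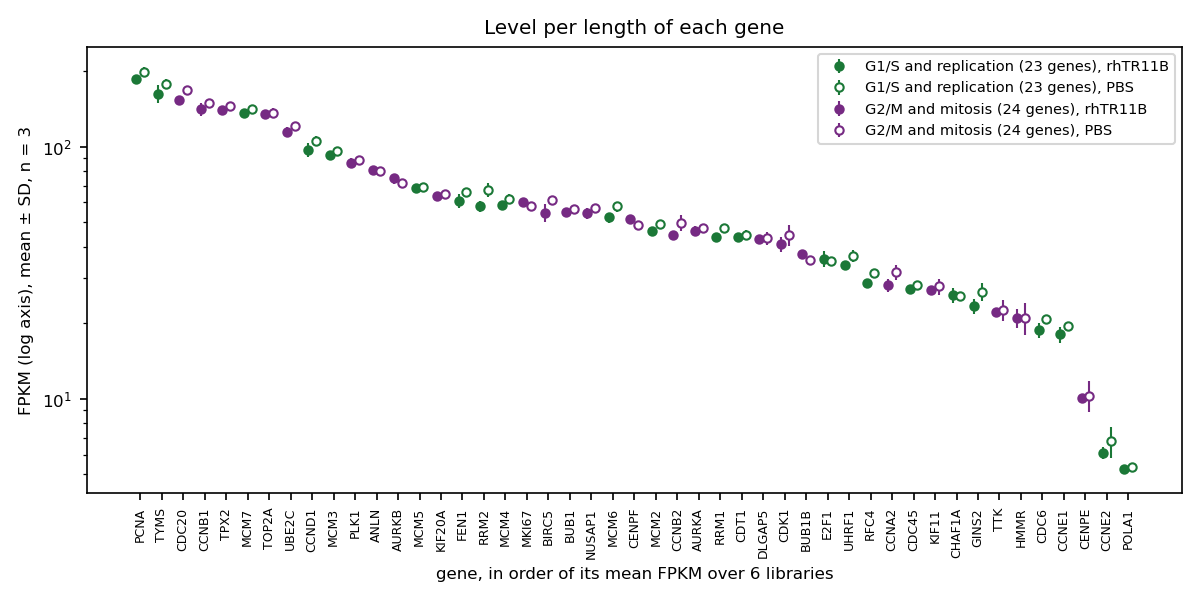
Level per length of the 47 genes, in FPKM on a log axis, as mean and SD of 3 libraries; filled points are rhTR11B and open points PBS, green for G1/S and purple for G2/M genes. The order runs from PCNA (192 FPKM over all libraries) to POLA1 (5.30), and the points of the 2 groups lie close together for each gene.

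The subunits of the MCM helicase, which assemble into a ring with 1 copy of each, did not share one FPKM level. These levels depend on the gene lengths behind the deposited FPKM, whose annotation is not stated. Over all libraries MCM7 averaged 139 FPKM, MCM3 94.4, MCM5 68.6, MCM4 60.4, MCM6 55.1 and MCM2 47.7. In each of the 6 libraries MCM7 was the highest, MCM3 the next and MCM2 the lowest. The difference between MCM7 and MCM2 was thus present in both groups.

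None of the 47 genes passed the test between rhTR11B and PBS. With edgeR's quasi-likelihood test and Benjamini-Hochberg adjustment over all 13567 genes tested, 0 of the 23 G1/S genes and 0 of the 24 G2/M genes had an adjusted p under 0.05, where 3.6% of all tested genes did (2.92% higher and 0.678% lower with rhTR11B). At an unadjusted p under 0.05 there were 4 genes in each phase, all lower with rhTR11B. These 8 genes are 17.0% of the 47, where 10.3% of all tested genes were lower at that p, and 0 of the 47 were higher, where 13.8% of all tested genes were (24.2% in either direction). DESeq2 called 1 of the 47, RRM2, as lower and 0 as higher, where it called 3.15% of all genes with an adjusted p as lower and 6.49% as higher. limma-voom called 0 of the 47, where it called 0.627% of all tested genes as lower and 2.56% as higher. All 47 passed the filter on low counts. The 95% interval of each gene's fold change lay within 1.3-fold in either direction, a bound chosen after the values were seen, and the same held for 64.1% of all tested genes. The intervals of the set were narrower, with a median half-width of 0.13 on the log2 scale against 0.17 for all tested genes, and its genes were more abundant. A p that misses the threshold does not show that the levels were equal, and these intervals, one per gene and not adjusted for their number, give the sizes that the data allow.

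**Figure D2:**
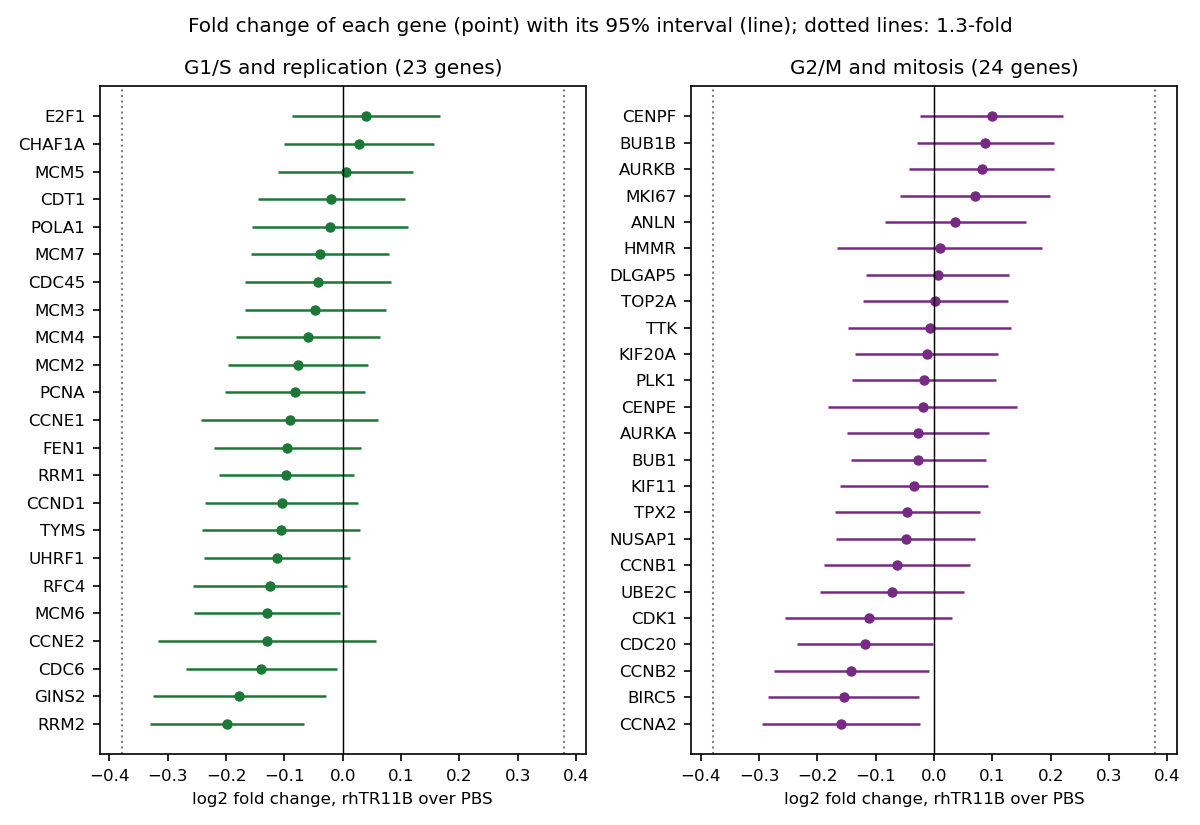
Log2 fold change of each gene, rhTR11B over PBS (point), with its 95% interval from the edgeR fit (line), for 23 G1/S genes on the left and 24 G2/M genes on the right; dotted lines mark 1.3-fold. Points run from -0.20 for RRM2 to 0.10 for CENPF, and every interval stays inside the dotted lines.

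Genes of the replicative helicase, its loading and its activation had log2 fold changes from -0.18 to 0.00. MCM2 had 170, 161 and 160 CPM in rhTR11B replicates 1 to 3 and 170, 168 and 179 CPM in PBS replicates 1 to 3, on library sizes scaled by the trimmed mean of M-values (TMM; log2 fold change -0.08, adjusted p = 0.434). MCM6 had 207, 193 and 192 CPM with rhTR11B and 205, 219 and 224 CPM with PBS. Its groups overlapped because PBS replicate 1 lay below rhTR11B replicate 1, and its log2 fold change was -0.13 (SE 0.06, adjusted p = 0.193). MCM5 had 284, 279 and 282 CPM with rhTR11B and 284, 275 and 284 CPM with PBS, the smallest difference of the 6 subunits (log2 fold change 0.00, 95% interval -0.11 to 0.12). MCM3 (-0.05), MCM4 (-0.06) and MCM7 (-0.04) lay between, with adjusted p from 0.574 to 0.709. MCM3 had 325, 311 and 312 CPM with rhTR11B and 314, 327 and 339 CPM with PBS. MCM4 had 256, 246 and 240 CPM with rhTR11B and 243, 264 and 266 CPM with PBS, and MCM7 had 422, 408 and 407 CPM with rhTR11B and 416, 426 and 429 CPM with PBS. The groups of all 6 subunits overlapped. CDC6, which with CDT1 loads the ring onto origins, had 92.8, 90.4 and 82.6 CPM with rhTR11B and 94.1, 101 and 98.0 CPM with PBS. All 3 rhTR11B libraries lay below the PBS libraries, by a log2 fold change of -0.14 (SE 0.06, adjusted p = 0.175). CDT1 itself had -0.02 (adjusted p = 0.878). GINS2 and CDC45, which join the ring to form the active helicase, had -0.18 (SE 0.07, adjusted p = 0.135) and -0.04 (adjusted p = 0.704). GINS2 had 65.3, 61.1 and 57.5 CPM with rhTR11B and 63.0, 73.9 and 71.2 CPM with PBS, so the groups overlapped.

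RRM2 came nearest to passing among all 47 genes. It encodes the regulated subunit of ribonucleotide reductase, which makes the deoxynucleotides for DNA synthesis. RRM2 (chromosome 2, 10122568 to 10211010 on GRCh38.p14) had 212, 193 and 195 CPM with rhTR11B and 215, 243 and 230 CPM with PBS. All rhTR11B libraries lay below all PBS libraries, the gap being smallest between the first replicates, and the fold was 0.872 (95% interval 0.796 to 0.955; log2 fold change -0.20, SE 0.06, adjusted p = 0.0732). Leaving out each library in turn, the log2 fold change of RRM2 ran from -0.24 to -0.15 and its adjusted p from 0.0357 without rhTR11B replicate 1 to 0.293 without PBS replicate 2. The catalytic subunit RRM1 had 160, 156 and 158 CPM with rhTR11B and 164, 172 and 171 CPM with PBS, without overlap (log2 fold change -0.10, adjusted p = 0.293). TYMS had -0.11 (adjusted p = 0.329), and its lowest library, rhTR11B replicate 3, had 269 CPM.

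Genes of the synthesis machinery and of chromatin assembly did not pass either. RFC4, a subunit of the loader of the PCNA clamp, had 39.1, 39.0 and 39.9 CPM with rhTR11B and 42.1, 43.1 and 43.5 CPM with PBS. Its groups did not overlap and varied little within themselves, while its log2 fold change of -0.12 (SE 0.06) had an adjusted p of 0.236. PCNA had -0.08 (adjusted p = 0.401), the flap nuclease FEN1 -0.10 (0.344) and UHRF1, which recruits the maintenance DNA methyltransferase, -0.11 (0.259). POLA1 had -0.02 (adjusted p = 0.870). CHAF1A, the large subunit of the chromatin assembly factor that places histones behind the fork, had 116, 116 and 104 CPM with rhTR11B and 109, 106 and 114 CPM with PBS. The groups overlapped fully, and its log2 fold change was 0.03 (adjusted p = 0.823).

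The regulators that open S phase did not pass. CCND1, cyclin D1, which starts the phosphorylation of the retinoblastoma protein, had 438, 415 and 388 CPM with rhTR11B and 423, 452 and 461 CPM with PBS (log2 fold change -0.10, SE 0.06, adjusted p = 0.317). E2F1, an activating E2F factor, had 99.8, 101 and 90.4 CPM with rhTR11B and 95.1, 91.9 and 96.0 CPM with PBS (0.04, adjusted p = 0.734). Both had rhTR11B replicate 3 as their lowest library, and the groups of both overlapped. The E cyclins CCNE1 and CCNE2 had -0.09 (adjusted p = 0.464) and -0.13 (0.385). CCNE2 had the widest interval of the G1/S genes (-0.32 to 0.06), with 29.5 CPM in PBS replicate 2 against 24.8 and 22.8 CPM in PBS replicates 1 and 3.

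The mitotic cyclins and CDK1 all had negative log2 fold changes. CCNA2, cyclin A, which acts in S phase and at mitotic entry, had 81.6, 78.1 and 73.4 CPM with rhTR11B and 81.6, 92.5 and 86.5 CPM with PBS (log2 fold change -0.16, SE 0.06, adjusted p = 0.138). Its rhTR11B replicate 1 and PBS replicate 1 were level, so the groups were not separate. CCNB2, a B-type cyclin, had 67.3, 68.0 and 65.0 CPM with rhTR11B and 70.3, 79.5 and 71.1 CPM with PBS (-0.14, SE 0.06, adjusted p = 0.180), with all rhTR11B libraries below. CCNB1, the other B-type cyclin, had -0.06 (adjusted p = 0.546). CDK1, the kinase that both bind, had -0.11 (adjusted p = 0.327), with values of 137 to 163 CPM in the PBS libraries alone.

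Genes of the spindle checkpoint and of mitotic exit stood on both sides of 0. BIRC5 (survivin), of the chromosomal passenger complex, had 151, 151 and 133 CPM with rhTR11B and 160, 160 and 165 CPM with PBS (log2 fold change -0.15, SE 0.06, adjusted p = 0.135). CDC20 had 259, 253 and 249 CPM with rhTR11B and 272, 273 and 282 CPM with PBS (-0.12, SE 0.06, adjusted p = 0.201). For both genes all rhTR11B libraries lay below all PBS libraries. BUB1B, the checkpoint protein that holds CDC20 in check, lay the other way without overlap, at 143, 136 and 135 CPM with rhTR11B and 130, 131 and 129 CPM with PBS (0.09, SE 0.06, adjusted p = 0.351). UBE2C, a ubiquitin-conjugating enzyme of the anaphase-promoting complex, had -0.07 (adjusted p = 0.481).

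The mitotic kinases, motors and spindle proteins had log2 fold changes between -0.05 and 0.10. AURKB, the kinase of the passenger complex, had 132, 126 and 142 CPM with rhTR11B and 126, 125 and 126 CPM with PBS (log2 fold change 0.08, SE 0.06, adjusted p = 0.416). PLK1, AURKA, BUB1 and TTK had log2 fold changes from -0.03 to -0.01, with adjusted p of at least 0.802. CENPF, a large kinetochore protein, had 543, 524 and 556 CPM with rhTR11B and 501, 521 and 495 CPM with PBS, the highest log2 fold change of the set (0.10, SE 0.06, adjusted p = 0.312). Its groups did not overlap, and the smallest gap was between the second replicates. The motors CENPE, KIF11 and KIF20A had -0.02, -0.03 and -0.01, and the spindle and cytokinesis proteins TPX2, NUSAP1, HMMR, DLGAP5 and ANLN ran from -0.05 to 0.04. MKI67 had 791, 770 and 848 CPM with rhTR11B and 746, 768 and 781 CPM with PBS (0.07, SE 0.06, adjusted p = 0.513). The topoisomerase TOP2A, which untangles sister chromosomes, averaged 791 ± 17.7 CPM with rhTR11B and 789 ± 28.4 CPM with PBS (SD, n = 3 each; 0.00, adjusted p = 0.986).

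The spread inside a group often exceeded the difference between groups. For 36 of the 47 genes the difference between the group means was smaller than the range of the PBS libraries, and for 42 of 47 it was smaller than the wider of the ranges within the groups. No such count was made over all tested genes, so these counts do not set the 47 genes apart. CENPE had 98.5 CPM in PBS replicate 2 and 75.7 CPM in PBS replicate 3, with 83.6 to 88.5 CPM in the rhTR11B libraries between them. HMMR, a spindle assembly protein, had 71.2 and 54.2 CPM in the same PBS libraries and 59.5 to 68.4 CPM with rhTR11B. Groups did not overlap for 9 genes. CDC6, RRM1, RRM2, RFC4, CCNB2, CDC20 and BIRC5 were lower in every rhTR11B library (7 genes, 14.9% of the set, against 14% of all tested genes), and BUB1B and CENPF were higher in every one (2 genes, 4.26%, against 15.1% of all tested genes).

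**Figure D3:**
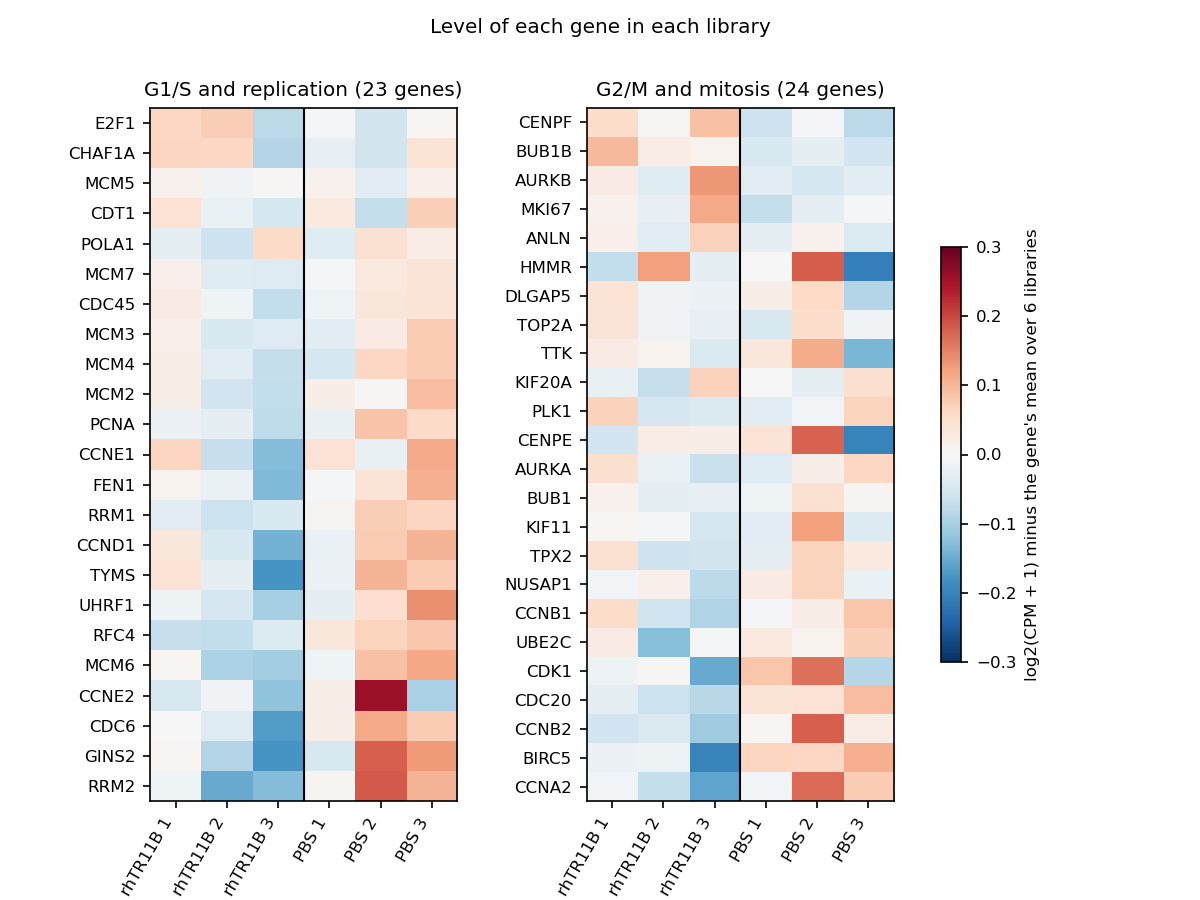
Log2(CPM + 1) of each gene (rows, ordered by fold change) in each library (columns), minus the gene's mean over the 6 libraries; red is above and blue below that mean. The bluest cells of the G1/S genes lie in rhTR11B replicate 3, which held the lowest value for 16 of the 23, and PBS replicate 3 held the highest for 13.

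The values of both phases lay mostly below 0. Of the 23 G1/S genes 20 had a negative log2 fold change, as did 16 of the 24 G2/M genes and 49.97% of all tested genes. The medians were -0.09 for G1/S genes, -0.02 for G2/M genes and 0.00 for all tested genes. The values of the G1/S genes ran from -0.20 to 0.04 and those of the G2/M genes from -0.16 to 0.10, where the quartiles of all tested genes were -0.10 and 0.15. Genes of a phase vary together across libraries, so the count of negative values is a description and carries no test.

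**Figure D4:**
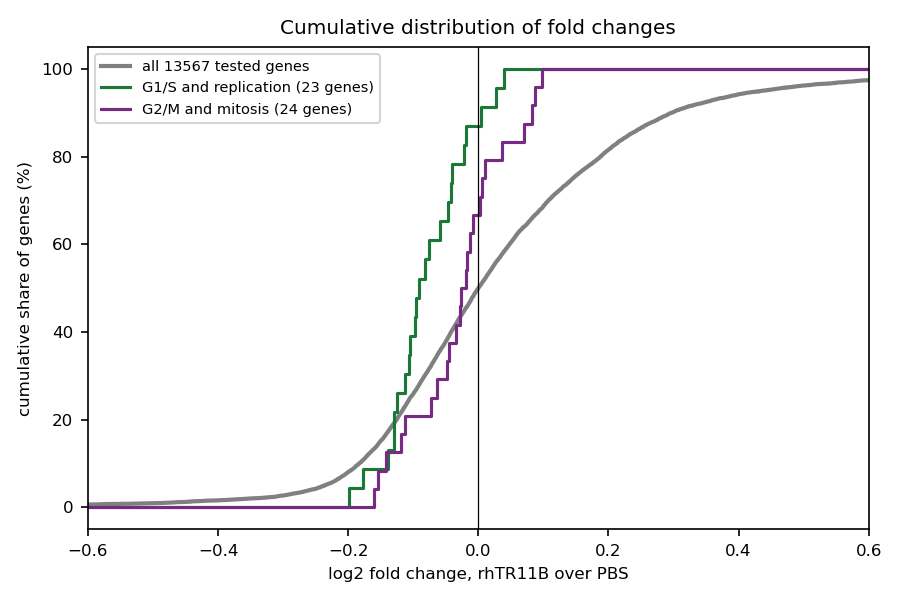
Cumulative share of genes (%) by log2 fold change, rhTR11B over PBS, for the 23 G1/S genes (green), the 24 G2/M genes (purple) and all 13567 tested genes (grey). The median lies at -0.09 for G1/S genes, -0.02 for G2/M genes and 0.00 for all tested genes, and no gene of either phase lies below -0.20 or above 0.10.

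Summed over each phase, the libraries overlapped. The G1/S genes together took 4070, 3918 and 3799 CPM in rhTR11B replicates 1 to 3 and 4001, 4186 and 4244 CPM in PBS replicates 1 to 3. The G2/M genes took 5922, 5723 and 5821 CPM with rhTR11B and 5739, 5975 and 5816 CPM with PBS. PBS replicate 1 was the lowest PBS library in both sums and lay among the rhTR11B libraries. The ratio of the G2/M sum to the G1/S sum was 1.45, 1.46 and 1.53 with rhTR11B and 1.43, 1.43 and 1.37 with PBS, without overlap. The distance between the lowest rhTR11B library and the highest PBS library was smaller than the distance among the libraries of either group. No p is given for these sums, since the genes were chosen with earlier results of these data known.

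**Figure D5:**
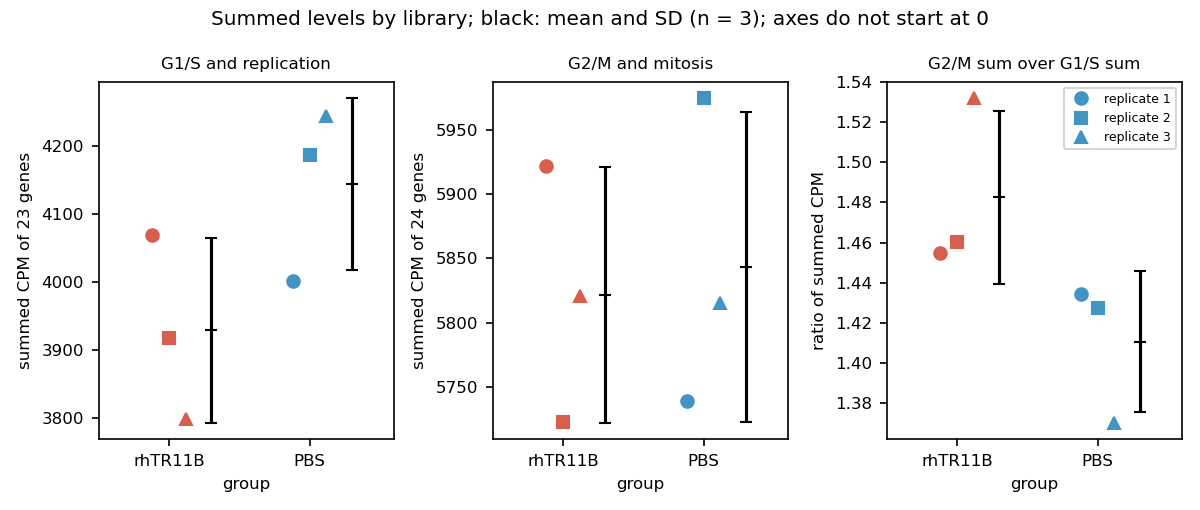
Summed CPM of the 23 G1/S genes (left) and the 24 G2/M genes (middle) and the ratio of the sums (right) in each library, with rhTR11B in red and PBS in blue; symbols mark the replicate number, and black bars the mean and SD (n = 3). The groups overlap in both sums and do not overlap in the ratio, where rhTR11B runs from 1.45 to 1.53 and PBS from 1.37 to 1.43.

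Single libraries moved these medians. Without rhTR11B replicate 3, the library with the highest mitochondrial share, the G1/S median was -0.06, and without PBS replicate 3 it was -0.07. The G2/M median was -0.04 without PBS replicate 1, without PBS replicate 3 or without rhTR11B replicate 1, and -0.02 without any one of the other libraries. The distance between the 2 medians was 0.07 with all libraries, 0.04 without rhTR11B replicate 3 and 0.02 without PBS replicate 3. With offsets for GC content and length the medians were -0.06 for G1/S genes, -0.01 for G2/M genes and -0.01 for all tested genes. The rank (Spearman) correlation of fold change with transcript length was 0.12 over all tested genes. It was 0.05 over the 23 G1/S genes and 0.53 over the 24 G2/M genes. Tested genes were also split by length into parts of near-equal size. Up to 2837 bases the median log2 fold change was -0.03 for 4522 tested genes and -0.09 for 17 of the set. From 2838 to 5401 bases it was 0.00 for 4523 tested genes and -0.05 for 25 of the set. From 5402 bases it was 0.02 for 4522 tested genes and 0.00 for 5 of the set. Those 5 were MKI67, TOP2A, CENPE and CENPF of G2/M and POLA1 of G1/S, so the split by length also mixes the phases. The part of length, GC content or mitochondrial share in these medians was not tested.

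The wider machinery of the division cycle was read from 9 further lists, which held no gene of the set. Of 179 listed genes 177 were tested, and 0 were higher and 0 lower at an adjusted p under 0.05 in edgeR. limma-voom also called 0. DESeq2 called 7 as lower (ANAPC15, MYBL2, NME1, POLD2, TFDP1, TRIP13 and UBE2S), which is 3.95% against 3.15% of all genes with an adjusted p, and 0 as higher, against 6.49%. At an unadjusted p under 0.05 25 were lower (14.1%, against 10.3% of all tested genes) and 2 were higher (1.13%, against 13.8%). In these lists 135 of the 177 genes (76.3%) had a negative log2 fold change, with a median of -0.05. CDKN1C and CCND2 were too low to test.

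For replication, DBF4, the activator of the origin-firing kinase CDC7, had 22.6 ± 2.19 CPM with rhTR11B and 26.5 ± 2.39 CPM with PBS (SD, n = 3 each; adjusted p = 0.120), and the licensing inhibitor GMNN had a log2 fold change of -0.13 (0.207). Of 15 licensing and firing genes the median was -0.02. TOPBP1 and MCM10, which act at the firing step, had -0.07 (adjusted p = 0.460) and -0.08 (0.522). In the replisome and chromatin assembly list of 28 genes the median was -0.06. The histone chaperone ASF1A had 11.0 ± 1.13 CPM with rhTR11B and 13.7 ± 0.518 CPM with PBS (-0.31, adjusted p = 0.0737), POLD2, a subunit of polymerase delta, had -0.19 (0.0767), GINS1, a partner of GINS2, -0.19 (0.0880) and RPA2, of the single-strand binding complex, -0.21 (0.104). All 10 genes of deoxynucleotide supply had negative values, with a median of -0.11. NME1 (-0.23, adjusted p = 0.0744), DCK (-0.23, 0.0969), DUT (-0.15, 0.167) and RRM2B (-0.19, 0.252), which convert, salvage, protect or make nucleotides, had the smallest p among them. TK1, the thymidine kinase of the same list, and PCLAF, a PCNA-binding protein in none of the lists, were chosen after their values were seen. TK1 had -0.03 (adjusted p = 0.785). PCLAF had 50.6, 48.4 and 39.8 CPM with rhTR11B and 53.6, 56.4 and 53.1 CPM with PBS, without overlap (-0.23, adjusted p = 0.0866). Its adjusted p was 0.0321 with the replicate block and 0.0216 with no low-count filter, where 1.86% and 2.43% of all tested genes were called lower. It was 0.0639 with DESeq2, 0.104 with GC and length offsets, and 0.0312 to 0.279 with 1 library left out.

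Among 24 tested genes of G1/S control the median was -0.07. TFDP1, a partner with which many E2F factors bind DNA, had 112 ± 9.91 CPM with rhTR11B and 130 ± 5.60 CPM with PBS (log2 fold change -0.21, SE 0.07, adjusted p = 0.0733). The inhibitors CDKN2A and CDKN2C had -0.17 (adjusted p = 0.201) and -0.14 (0.259), and their target CDK4 had -0.11 (0.299). Of the same list, 6 more genes were chosen after their values were seen. The CDK inhibitors CDKN1B, CDKN2B and CDKN1A had -0.13 (adjusted p = 0.322), -0.09 (0.733) and 0.03 (0.809). The D cyclin CCND3 had -0.12 (adjusted p = 0.399), its kinase CDK6 -0.09 (0.371) and the retinoblastoma gene RB1 0.05 (0.709). Of 16 genes of mitotic entry the median was -0.05. MYBL2, which turns the MuvB complex into an activator of mitotic genes, had 328 ± 31.2 CPM with rhTR11B and 381 ± 12.6 CPM with PBS (-0.22, SE 0.07, adjusted p = 0.0707). The CDK-binding proteins CKS2 and CKS1B had -0.16 (adjusted p = 0.119) and -0.18 (0.133), and BORA, which helps to activate PLK1, had -0.15 (0.321). FOXM1, chosen after its value was seen, had -0.07 (adjusted p = 0.538).

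For mitosis, TRIP13, an ATPase that disassembles the checkpoint complex, came nearest to passing of all 177 genes. It had 220 ± 12.5 CPM with rhTR11B and 254 ± 13.9 CPM with PBS (log2 fold change -0.21, SE 0.06, adjusted p = 0.0632). SKA1, CENPN and CENPH of the kinetochore had -0.20, -0.20 and -0.21 (adjusted p = 0.0803, 0.0820 and 0.138), and the median of the 26 kinetochore and checkpoint genes was -0.06. Among 21 genes of spindle motors and cytokinesis, with a median of -0.03, ASPM, which focuses the spindle poles, had 388 ± 9.00 CPM with rhTR11B and 349 ± 25.9 CPM with PBS (0.15, adjusted p = 0.150). The kinase NEK2 had -0.16 (adjusted p = 0.163), PBK -0.14 (0.342) and the kinesin KIF18B 0.08 (0.415). Among 20 condensin and cohesin genes, with a median of -0.06, PDS5A and STAG1 of cohesin had -0.13 (adjusted p = 0.183) and -0.14 (0.196), the condensin subunit NCAPH had -0.11 (0.252) and ESPL1, the protease that cuts cohesin, had 0.12 (0.209). Among 17 genes of the anaphase-promoting complex and its partners, with a median of -0.06, ANAPC15 had 14.5 ± 0.926 CPM with rhTR11B and 17.6 ± 0.433 CPM with PBS (-0.28, adjusted p = 0.0664). UBE2S, which extends ubiquitin chains for the complex, had -0.19 (adjusted p = 0.0764), and the subunits ANAPC11 and ANAPC13 had -0.17 (0.163) and -0.18 (0.204).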

How the data were processed

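The authors' deposited count table holds whole-number read counts per gene symbol, and their deposited FPKM table equals count over gene length and library total for 100% of genes within a relative tolerance of 0.001. Per the submitters' processing notes, the tools were fastp, HISAT, HTSeq, DESeq2 and R 3.2.0, with the GRCh38 build. For strand setting and annotation the sources used here say nothing. Reads from a gene and an antisense or overlapping neighbour may therefore be mixed. Counts were fitted with edgeR 4.0.16 in R 4.3.3: filterByExpr (minimum count 10), TMM scaling, group as the only term, the quasi-likelihood test and Benjamini-Hochberg adjustment over 13567 genes. SEs are the log2 fold change over the root of F, and 95% intervals use the t quantile of the fit. CPM are TMM-scaled. The step was tested on simulated data. Chi-square per degree of freedom between replicates was 5.33 to 26.1, above sampling noise, so no libraries were merged.

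The 47 genes and the further lists were chosen with earlier results of these data known. Values per library are given for MCM2 to MCM7, MKI67, CCND1 and, in each phase and direction, up to 4 genes with the smallest p, and for some others chosen after their values were seen. Each further list names its 4 genes of smallest p. Promoters and coordinates come from RefSeq (GRCh38.p14), in which all 47 symbols matched. Bases after the start were found in a GENCODE 29 transcript for 33 of 38 genes, in sense orientation. GC content for the offsets came from GENCODE 29 transcripts, which covered 90.8% of tested genes and all 47. AKR1B10, ALDH1A1 and AKR1C1 were not analysed here. Alternatives were other scaling, DESeq2 1.42.0, limma-voom (limma 3.58.1), other filters, the replicate block, FPKM on a log2 scale, GC and length offsets, a fit without mitochondrially encoded genes, and leaving out each library.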

Additional observations from a re-analysis of the deposited data

How the results depend on the processing

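Over 20 alternatives the count of genes called remained 0 in both phases and directions, except for RRM2 among the lower G1/S genes. The count was 1 with the Wald test of DESeq2, 1 with no low-count filter and 1 at an adjusted p under 0.1, where 3.15%, 2.43% and 4.10% of all genes tested were called lower. With 1 library left out it ran from 0 to 1, RRM2 passing without rhTR11B replicate 1, where 3.10% of all genes were called lower. Of 20 genes named by rule under each alternative, MCM5, at 0.00, and CHAF1A changed sign, without passing in any setting: with GC and length offsets CHAF1A had -0.010 and MCM5 -0.029, and MCM5 had -0.0119 with library size alone, -0.00145 with no low-count filter, -0.0117 on log2(FPKM + 1) with and without a filter, -0.0119 on log2(FPKM + 0.1), and -0.011 to 0.013 with 1 library left out. The median of the G1/S genes ran from -0.11 to -0.06 and that of the G2/M genes from -0.04 to -0.01. Deviations from the group means had correlations across genes of -0.22, 0.11 and -0.02 between same-numbered libraries, for replicates 1, 2 and 3. Between differently numbered libraries they ran from -0.21 to 0.24. The same-numbered values thus did not stand above the others. Deviations of 3 libraries from their mean sum to 0, so few of these values are free to vary. They therefore cannot settle whether same-numbered libraries were paired. With the replicate block, 0 of the 47 genes passed and the medians were -0.09 and -0.02. Of the 177 further genes, 3 (ASF1A, NME1 and TFDP1) passed as lower with the block, which is 1.69% against 1.86% of all tested genes. As higher 0 of them passed, against 5.71% of all tested genes. Over all genes, 396 were higher and 92 lower with rhTR11B. That became 774 and 252 with the block, 740 and 359 with DESeq2, 940 and 483 with no filter, 1056 and 556 at an adjusted p under 0.1, 558 and 191 with the offsets, 205 and 26 at a mean of at least 5 CPM, 0 and 0 on log2(FPKM + 1) with no filter, 62 and 21 with one, and 9 to 903 higher and 3 to 427 lower with 1 library left out. With 3 libraries per group the fit limits what can be seen: the median 95% interval of the 47 genes reached 0.13 on the log2 scale to either side.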

Other observations

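Some further genes, chosen after their values were seen, bear on the cell line label in either direction. MTAP, the neighbour of CDKN2A, had 1568 to 1724 counts in the rhTR11B libraries and 1719 to 2013 counts in the PBS libraries. CDKN2B, the other inhibitor gene at that locus, had 173 to 216 counts with rhTR11B and 198 to 234 counts with PBS. The aldo-keto reductases AKR1C2 and AKR1C3 had at most 1 and 3 counts in any library. CDH2 (N-cadherin) had 5333 to 5995 counts with rhTR11B and 4279 to 4636 counts with PBS, where the epithelial cadherin CDH1 had at most 1 count in any library. VIM had 29776 to 32477 counts with rhTR11B and 32390 to 33878 counts with PBS. KRT7, a keratin of lung adenocarcinoma cells, had 12515 to 13788 counts with rhTR11B and 14013 to 14960 counts with PBS. Whether the cells are A549 was not tested against a reference profile.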
